A study of Mus musculus with 2 samples.

Results

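The gene set comprised 41 mouse genes that a cell uses to copy and divide its chromosomes, 15 of S phase (DNA replication) and 26 of mitosis, out of 32285 genes in the count tables. Members were listed by gene name from knowledge of the cell cycle, with earlier results of these data known, and all 41 were found. They were followed through every cell type of single-cell RNA-seq (scRNA-Seq) data from the temporomandibular joint (TMJ), the jaw joint of C57BL/6 WT mice labelled 8 to 10 weeks old. There were 2 libraries, 1 from joints injected with PBS and 1 from joints injected with complete Freund's adjuvant (CFA), an oil with killed mycobacteria that inflames the joint. Per the methods, the mice were female, both joints of each were injected, and tissue of several mice entered each library as a pool some weeks later. The bone of both joint surfaces, the disc, muscle and ligament were dissociated in 1 digest, and CD45+ leukocytes were depleted on magnetic beads before loading. With 1 library per condition, no difference between PBS and CFA has a replicate check, and no p-value is given.

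S-phase genes are switched on by E2F transcription factors once cyclin-dependent kinases release them from the retinoblastoma family of pocket proteins. Mitotic genes follow later, driven by the MuvB complex with B-Myb and FoxM1 at short elements called CHR, beside CCAAT boxes bound by NF-Y. In bone marrow, committed precursors of red cells, neutrophils and B cells divide many times before they mature and stop, whereas most endothelial, fibroblast and Schwann cells of an adult joint are at rest.

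To show the elements those factors are known to bind, the 250 bases before the start site are printed for 3 mitotic and 3 S-phase members, taken in order of their UMIs outside the erythroid cells. Windows reaching over 30 bases into an annotated gene, those of Ube2c and Pcna, were passed over. The sequences are RefSeq's, on GRCm38.p6. Mki67 (chr7:135716380-135716629), Top2a (chr11:99024190-99024439) and Mcm3 (chr1:20820313-20820562) are read on the minus strand. Birc5 (chr11:117848987-117849236), Rrm1 (chr7:102441445-102441694) and Rrm2 (chr12:24708004-24708253) are read on the plus strand. Capitals mark CCAAT, the CHR forms TTTGAA and TTCGAA, and the E2F forms TTTCCCGC and TTTGGCGC, on either strand.
Mki67: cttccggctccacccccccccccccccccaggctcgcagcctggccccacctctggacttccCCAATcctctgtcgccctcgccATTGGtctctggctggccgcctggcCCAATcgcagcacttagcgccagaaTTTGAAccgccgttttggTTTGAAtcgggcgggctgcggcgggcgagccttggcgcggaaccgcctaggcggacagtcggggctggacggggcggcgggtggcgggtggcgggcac
Top2a: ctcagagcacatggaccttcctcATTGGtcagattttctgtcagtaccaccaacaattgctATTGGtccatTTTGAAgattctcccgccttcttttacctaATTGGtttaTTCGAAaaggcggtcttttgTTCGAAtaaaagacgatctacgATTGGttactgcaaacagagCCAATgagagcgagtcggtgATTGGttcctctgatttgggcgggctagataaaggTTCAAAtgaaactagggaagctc
Birc5: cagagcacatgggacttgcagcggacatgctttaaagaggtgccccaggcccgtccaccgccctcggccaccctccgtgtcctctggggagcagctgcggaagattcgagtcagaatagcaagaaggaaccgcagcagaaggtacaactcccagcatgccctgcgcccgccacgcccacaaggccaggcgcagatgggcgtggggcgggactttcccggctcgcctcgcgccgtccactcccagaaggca
Rrm1: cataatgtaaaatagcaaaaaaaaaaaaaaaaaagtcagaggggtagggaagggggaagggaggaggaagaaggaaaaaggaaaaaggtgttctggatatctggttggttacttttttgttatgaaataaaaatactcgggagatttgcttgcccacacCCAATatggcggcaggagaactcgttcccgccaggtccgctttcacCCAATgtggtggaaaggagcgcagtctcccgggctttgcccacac
Rrm2: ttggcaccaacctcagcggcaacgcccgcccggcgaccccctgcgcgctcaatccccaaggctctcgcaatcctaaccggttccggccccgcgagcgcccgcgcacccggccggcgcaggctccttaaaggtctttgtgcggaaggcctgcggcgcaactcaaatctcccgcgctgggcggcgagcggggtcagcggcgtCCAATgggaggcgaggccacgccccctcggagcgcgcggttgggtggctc
Mcm3: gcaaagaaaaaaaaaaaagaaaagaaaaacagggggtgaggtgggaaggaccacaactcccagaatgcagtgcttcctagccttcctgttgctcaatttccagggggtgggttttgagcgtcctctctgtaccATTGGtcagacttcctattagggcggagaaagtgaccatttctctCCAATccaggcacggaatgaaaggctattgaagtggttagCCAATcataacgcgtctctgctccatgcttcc

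The Mki67 window held 3 CCAAT boxes, 141 to 188 bases before the start, and 2 TTTGAA elements. The Top2a window held 6 CCAAT boxes, 2 TTTGAA and 2 TTCGAA elements, and the Birc5 window held none of these letters. Among the S-phase members shown, Rrm1 had 2 CCAAT boxes, Rrm2 had 1 and Mcm3 had 3, and none had a CHR or E2F form. The table of RefSeq start windows used here was matched for 35 of the 41 members (all but Aurkb, Ccna2, Ccne2, Gins2, Mcm4 and Tpx2). CCAAT was present in 19 of 23 mitotic and 9 of 12 S-phase windows, and in 37.5% of all 27025 windows. A CHR form was present in 9 of 23 mitotic and 2 of 12 S-phase windows and in 19.6% of all windows, and each of those 9 mitotic windows also held CCAAT, a pairing found in 7% of all windows. An E2F form was present in 4 of 12 S-phase windows (Cdc6, Mcm5, Mcm6 and Mcm7), 0 of 23 mitotic windows and 1.51% of all windows. A match of letters is a description of the sequence only.

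A unique molecular identifier (UMI) marks 1 captured RNA molecule. Barcodes under 500 genes or over 10% mitochondrial UMIs were dropped, which left 5845 PBS cells with 42983612 UMIs and 4353 CFA cells with 48368066 UMIs. The median UMIs per cell were 4158 and 6996, and the members held 112066 and 70305 of the UMIs. Hemoglobin genes took 9.99% of PBS and 3.39% of CFA UMIs. Outside the erythroid clusters, 2262 of 4886 PBS cells (46.3%) but 40 of 4031 CFA cells (0.992%) had over 1% hemoglobin UMIs. Ratios of cells with at most 1% hemoglobin are therefore given beside those of all cells where at least 50 such cells remained in both libraries, which leaves out the erythroid, progenitor-like and granule-stage classes. The libraries shared 10 barcodes. Clusters were built without cell cycle and hemoglobin genes and are called by the class whose markers they held, as "-like". Of 51 clusters, 14 with 26.3% of PBS and 12.6% of CFA cells could not be named. Cells of blood lineages other than erythroid remained after the CD45 depletion, 791 in PBS and 1264 in CFA.

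Levels are CPM, the summed member UMIs over all UMIs of the same cells times 1000000, and all intervals are exact 95% intervals that cover counting error only. The members were most abundant in blood-forming cells of both libraries. Over all cells, the level was 2607 in PBS and 1454 in CFA. Without erythroid cells, it was 1259.6 and 763, and in those cells with at most 1% hemoglobin, it was 903 and 759. Blood lineages other than erythroid stood at 3888 [3831–3945] in PBS and 1171 [1156–1186] in CFA. Cells resident in the joint (endothelial, mural, fibroblast, skeletal, Schwann and satellite) stood at 565 [554–575] and 387 [378–396]. With at most 1% hemoglobin, the resident level was 352 [343–361] in PBS and 377 [368–386] in CFA, so the order of the libraries turned.

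Late erythroid-like cells, which fill with hemoglobin while still dividing, had the highest level of the classes with at least 50 cells in both libraries, 8787 [8712–8862] in PBS and 10410.5 [10299–10522] in CFA. Early B-cell-like cells (marked by Vpreb1, Igll1, Dntt and Rag1) came next, with 7956 [7745–8172] and 6732 [6516–6952]. Early erythroid-like cells, with 25 cells in CFA, had 7278 [7164–7394] and 5103 [4910.1–5302]. Granulocyte-monocyte progenitor-like cells, marked by the granule genes Elane and Mpo, had 4186 [4091–4282] and 3677 [3602–3753]. Granule-stage neutrophil-like cells, marked by Camp, Ltf and Ngp, had 4325 [4187–4466] and 3058 [2986–3130.1]. In each library, the intervals of these classes did not overlap, except those of the progenitor- and granule-stage cells of PBS.

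**Figure D1:**
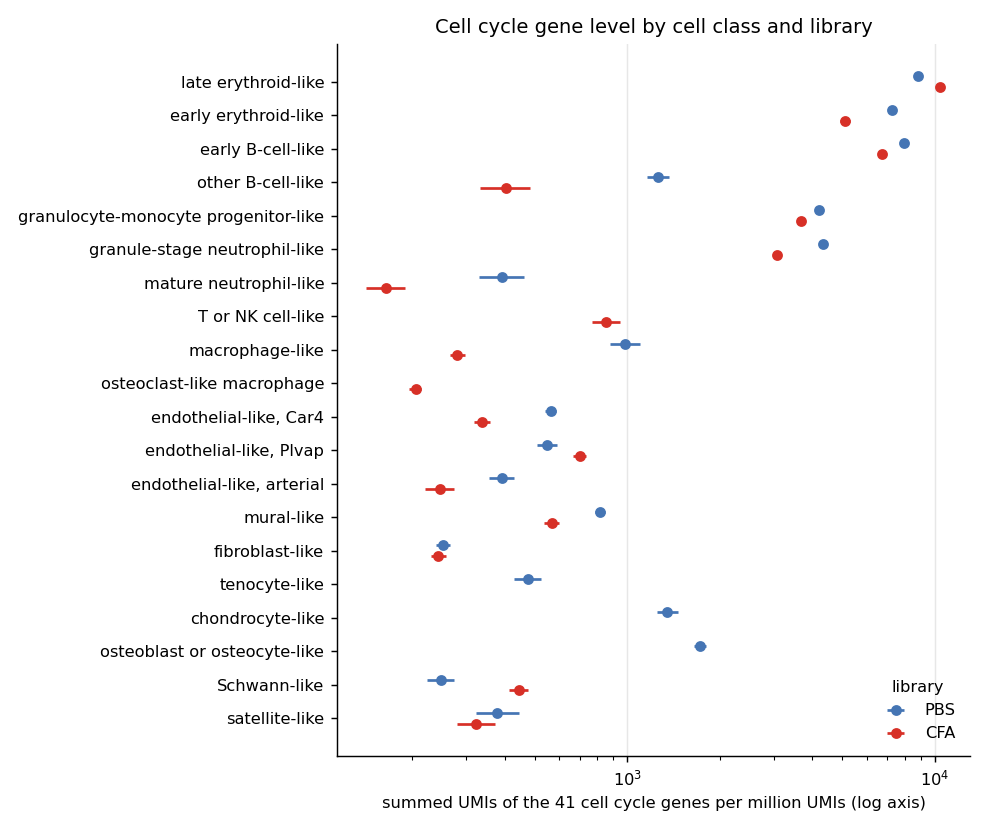
Summed UMIs of the 41 members in CPM (log axis) in each cell class, PBS and CFA, with exact 95% Poisson intervals. The 5 precursor classes lie above 3000, and the resident classes with at least 50 cells in both libraries lie below 1000.

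Mature neutrophil-like cells, a stage known to have left the cycle, had 391 [329–462] in PBS and 164 [141–189] in CFA, and they serve below as the background. They held 1 and 2 cells of high mitotic level (defined below as mitosis-high), without which the levels were 121 and 126. B-cell-like cells past the early stage had 1256 [1156–1363] and 403 [333–483]. Macrophage-like cells of CFA had 280.3 [265–297] over 303 cells, and osteoclast-like macrophages of CFA had 205 [195–214] over 273 cells. Of the resident classes, mural-like cells had 817 [787–848] and 568 [538–600.1]. Endothelial-like cells had 563 and 337 in the Car4 class, 548 and 701 in the Plvap class, and 391 and 246 in the arterial class. Fibroblast-like cells had 252 [239–266] and 243 [229.9–257], Schwann-like cells 248 [224–274] and 443 [414–474], and satellite-like cells 378 [321–443] and 323 [280.0–370.5]. The PBS levels of fibroblast-like and Schwann-like cells did not differ beyond counting error.

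The precursors differed in which phase they expressed. S-phase members made up 38.9% of member UMIs in early erythroid-like cells of PBS and 43.8% of CFA, but 23.5% and 18.5% in late erythroid-like cells. Early B-cell-like cells had 28.9% in both libraries. The share was 24.4% and 28.9% in progenitor-like cells and 24.4% and 21.3% in granule-stage neutrophil-like cells. In all resident cells it was 36.9% and 43.9%.

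Each member was placed by the class where its level peaked, among classes with at least 20 cells in the library. Hemoglobin UMIs were in the total here, which lowers the levels of late erythroid-like cells. The peak class depends on that total. Without hemoglobin UMIs, late erythroid-like cluster 11 (described below) had Pcna at 538 and 539.8 CPM, against its peak here of 268. Of the 15 S-phase members, 9 peaked in early erythroid-like, 3 in late erythroid-like and 3 in early B-cell-like cells. Of the 26 mitotic members, 17 peaked in late erythroid-like, 3 in early erythroid-like and 6 in early B-cell-like cells. Outside the erythroid classes, 40 members peaked in early B-cell-like cells, 32 in those of PBS and 8 in those of CFA. The exception was Aurka, at 44.5 CPM [36.6–53.6] in progenitor-like cells of CFA. In cells with at most 1% hemoglobin, 27 members were at 0 UMIs in at least 1 of the other classes, and the other 14 were lowest at between 0.757 (Nusap1) and 15 (Pcna) CPM. Levels are compared below across classes for 1 gene at a time, since capture differs between genes.

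The MCM proteins form the ring helicase loaded at replication origins. With hemoglobin UMIs in the total, Mcm2, Mcm3, Mcm4, Mcm5 and Mcm7 were highest in early erythroid-like cells of PBS, at 167, 270.0, 199, 191 and 379.7 CPM, and Mcm6 in those of CFA, at 285. Without them, late cluster 11 of PBS stood above early cluster 33 for Mcm2 (254 and 172), Mcm3 (334 and 277) and Mcm4 (258 and 204). The same held for Mcm5 (231 and 196), Mcm6 (344 and 267) and Mcm7 (481 and 389). In CFA it held for all but Mcm6 (275 and 286). Mcm7 stood at 379.7 and 242 in early erythroid-like cells of PBS and CFA, at 208 and 164 in early B-cell-like and at 105 and 87.8 in progenitor-like cells. It was 11.4 and 10.2 in fibroblast-like cells and 11.3 and 0.874 in mature neutrophil-like cells. Cdc6, which loads the helicase, peaked at 95.5 in early erythroid-like cells of PBS, but was at 229.5 and 228 in cluster 11 without hemoglobin UMIs. Gins2, part of the active helicase, peaked at 65.4 in early B-cell-like cells of PBS.

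Pcna, the clamp that holds the polymerase on DNA, was above 0 in every class with at least 20 cells. It had 267 and 268 CPM in early B-cell-like cells, 232 and 198 in early erythroid-like cells, and 88.1 in osteoclast-like macrophages of CFA. It had 85.1 and 72.1 in Car4 endothelial-like cells, 34.1 and 31.1 in fibroblast-like cells, and 28.3 and 18.4 in mature neutrophil-like cells.

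Of the genes that supply nucleotides, the 2 subunits of ribonucleotide reductase parted. Rrm1 peaked in early erythroid-like cells of PBS at 289 and was still at 43.4 and 71.3 in mural-like cells. Rrm2 peaked in late erythroid-like cells of PBS at 402 and was at 15.6 and 4.81 in mural-like and 4.58 and 2.54 in fibroblast-like cells. Tyms, thymidylate synthase, peaked at 143 in early erythroid-like cells of PBS, and Tk1, thymidine kinase, at 139 in late erythroid-like cells of CFA. Ccne2, a cyclin of S-phase entry, peaked at 67.6 in late erythroid-like cells of PBS. Uhrf1, which helps copy DNA methylation, peaked at 264 in early B-cell-like cells of PBS, where it stood above both erythroid classes of PBS (153 early and 127 late). Without hemoglobin UMIs, cluster 11 had Uhrf1 at 315 and 237, Rrm1 at 508 and 419 and Tyms at 333 and 269.

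Cyclins A2, B1 and B2 and their kinase Cdk1 were highest in late erythroid-like cells of CFA, with Ccna2 at 246, Ccnb1 at 140.3, Ccnb2 at 243 and Cdk1 at 179 CPM. Aurka, a kinase of the spindle poles, peaked there at 102, and Birc5, of the chromosomal passenger complex, at 504. Its partner kinase Aurkb peaked in early B-cell-like cells of PBS at 86.2, and Plk1, a kinase of mitotic entry, in early erythroid-like cells of PBS at 74.7. Without hemoglobin UMIs, cluster 11 had Aurkb at 166 and 190.1 and Plk1 at 109 and 135.

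Cenpa, the histone variant of centromeres, peaked at 319 in early erythroid-like cells of PBS, and the kinetochore proteins Cenpe and Cenpf at 274 and 519 in late erythroid-like cells of CFA. With hemoglobin UMIs in the total, the spindle checkpoint genes Bub1, Bub1b and Ttk all peaked in early B-cell-like cells, at 69.3 and 113 in CFA and 46.1 in PBS. Without hemoglobin UMIs, cluster 11 had Bub1 at 116 and 119.7, Bub1b at 146 and 167 and Ttk at 46.6 and 58.7. Cenpa was there at 433 and 633. Bub1b was also at 15.9 and 16.4 in macrophage-like cells and at 15.1 in osteoclast-like macrophages.

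Among motors and microtubule proteins, Kif11, Kif23, Tpx2, Nusap1, Hmmr, Prc1 and Anln peaked in late erythroid-like cells of CFA, at 345, 128, 284, 451, 213, 368 and 159 CPM, and Kif20b in early B-cell-like cells of PBS at 93.6. Anln, which anchors the contractile ring, was the only one of these above 20 in Schwann-like cells of PBS (29.0, and 29.3 in CFA). Of the partners of the anaphase-promoting complex, Cdc20 peaked at 129 in early erythroid-like cells of PBS and Ube2c at 978 in late erythroid-like cells of CFA. Without hemoglobin UMIs, cluster 11 had Kif20b at 102 and 168 and Cdc20 at 134 and 159.

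Top2a, the enzyme that untangles replicated DNA, was highest in early B-cell-like cells, 1010.3 [936–1089] in PBS and 883 in CFA. Late erythroid-like cells had 647 and 676 and progenitor-like cells 376 and 373. Mki67, which coats mitotic chromosomes, was highest in late erythroid-like cells, 1501 in PBS and 1943 [1895–1991] in CFA, against 657 and 642 in early B-cell-like cells and 434 and 294 in progenitor-like cells. In Schwann-like cells Mki67 was at 11.0 and 22.1, in fibroblast-like cells at 21.4 and 5.86, and in arterial endothelial-like cells at 50.6 and 2.27. With hemoglobin UMIs in the total, the order of the 2 leading classes was thus opposite for Top2a and Mki67 in both libraries. Without them, Top2a stood above the early B-cell-like level in late erythroid-like clusters 11 (1607 and 1575) and 31 (1485 and 1482). It was below that level in clusters 6 (390.0 and 103) and 5 (505, PBS alone).

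**Figure D2:**
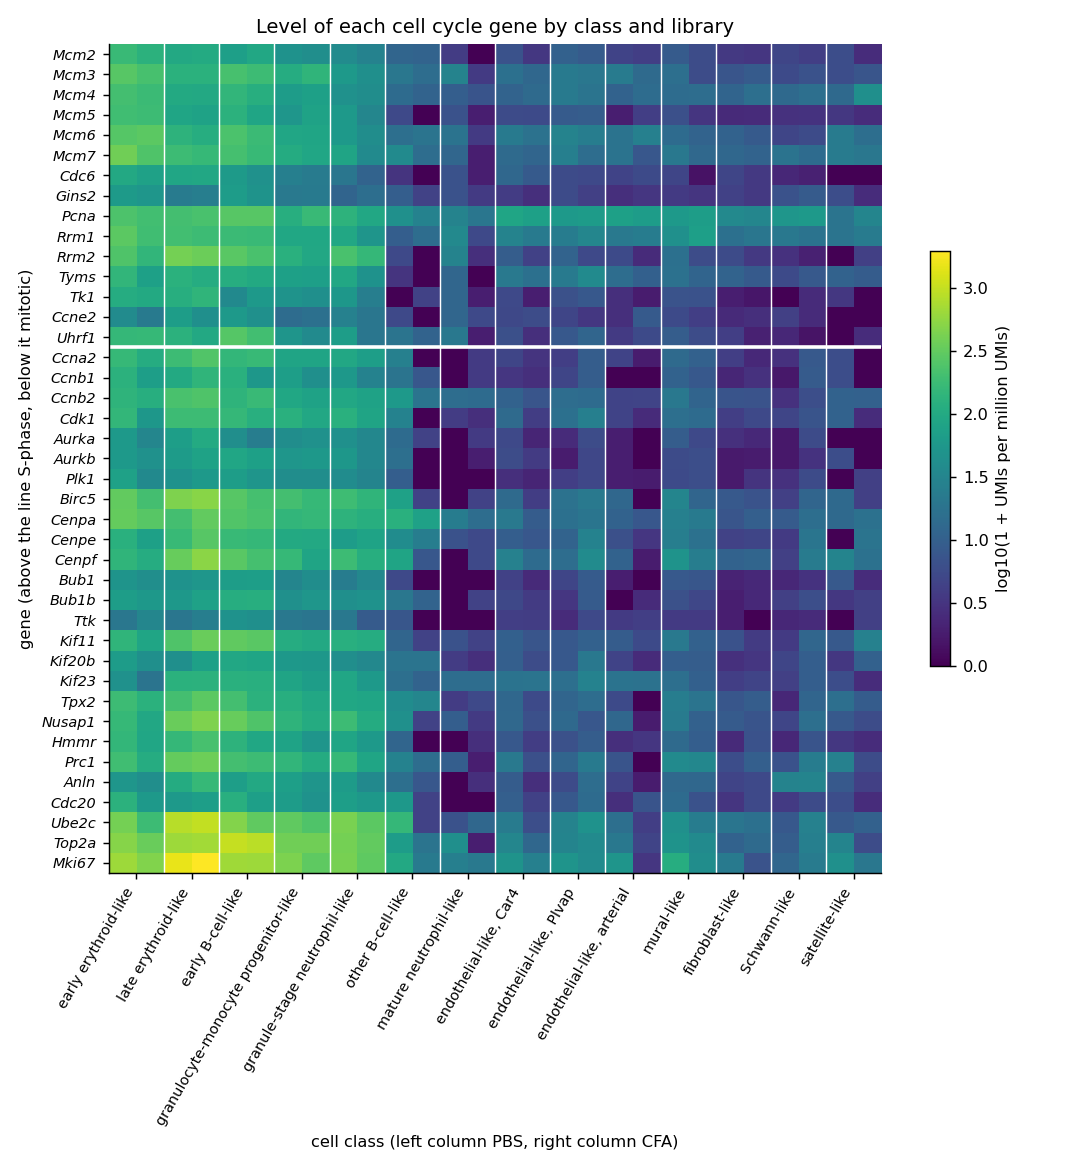
Level of each of the 41 members (rows, grouped by role) in each cell class (columns, PBS and CFA), as log10 of 1 plus CPM (colour). Read along a row, the precursor classes are brightest, and Pcna is detected across the resident classes.

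Over the members' UMIs, the order of the 41 genes in early B-cell-like cells resembled that in PBS erythroid cells (Spearman's rho 0.900 across genes, which share cells and depth and are not independent). For resident cells of PBS with over 1% hemoglobin, this likeness to PBS erythroid cells was 0.967. It was 0.707 for resident cells of PBS and 0.656 for those of CFA with at most 1% hemoglobin.

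The erythroid-like cells spanned 5 clusters that differed in hemoglobin, and levels were computed here without hemoglobin UMIs. The least filled cluster (33, led by Car1, median hemoglobin 1.04% in PBS and 0.0375% in CFA) had a member level of 7461 and 5111 CPM, of which 38.9% and 43.8% was S-phase. Cluster 11 (median hemoglobin 35.3% and 36.4%) had the highest level of the 5, 20648 and 22887, with 26.4% and 20.6% S-phase. Cluster 31 (8.27% and 5.67%) had 15887 and 14631, with 12.8% and 7.99% S-phase. The fullest cluster (6, with 75.1% and 69.5%) had 11254 and 7038, of which 6.93% and 2.83% were S-phase. Cluster 5, found in PBS alone with 396 cells, had 5794 at a median hemoglobin of 19.3%, with 31.9% S-phase. It was named from 4 detected erythroid markers, but its leading genes were Cox6a2, Scgb2b12, Wdhd1, Dok6 and Rpgrip1. None of its 10 leading genes was an erythroid marker, as in cluster 31, and its median was 1963 UMIs. Whether it holds red cell precursors was not tested.

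S-phase genes were lowest where hemoglobin was highest, while mitotic genes were still high there. Mcm7 was at 389 and 243 CPM in cluster 33, 481 and 394 in cluster 11, and 53.9 and 4.47 in cluster 6. Pcna was at 57.1 and 8.95 in cluster 6 against 538 and 539.8 in cluster 11. Ube2c was at 2801 and 1546 in cluster 6 and at 1603 and 1888 in cluster 11. Mki67 was at 664 and 462 in cluster 33, 3303 and 4083 in cluster 11, and 1861 and 1526 in cluster 6. Rrm2 was at 1068 and 867 in cluster 11.

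Between conditions, late erythroid-like cells had 1.18 times the PBS level in CFA [1.17–1.20]. S-phase members stood at 0.929 [0.901–0.958] and mitotic members at 1.26 [1.24–1.28]. No member of the 41 was 2-fold higher or lower, where 2.77% of genes were 2-fold higher and 19.8% lower in CFA. Kif20b (42.1 and 73.1 CPM, ratio 1.73), Cenpe (1.68) and Cenpf (1.55) had the highest ratios. Ccne2 (67.6 and 42.1, ratio 0.623), Uhrf1 (0.758) and Mcm6 (0.829) had the lowest. Without the mitosis-high cells defined below, the ratio was 0.439, and PBS alone held cluster 5. Of the clusters found in both libraries, the level was higher in CFA in cluster 11 (14607 and 16855) and lower in clusters 6 (3311 and 2261) and 31 (13588 and 11909.6).

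Early B-cell-like cells (104 in PBS and 89 in CFA) had a ratio of CFA to PBS of 0.846 [0.811–0.882], and of 0.789 with at most 1% hemoglobin. Of their 41 members, 0 were 2-fold higher and 1 was 2-fold lower in CFA, against 4.96% and 4.16% of all genes, and the same counts with at most 1% hemoglobin stood against 4.67% and 4.01%. That member was Ccnb1, at 120.3 in PBS and 54.7 in CFA (0.455 [0.289–0.699]). Aurka (0.570) and Cdc20 (0.598) were the next lowest, and Tk1 (1.64), Anln (1.41) and Mcm2 (1.30) the highest, each with an interval that held 1 except that of Cdc20 [0.397–0.888]. Without mitosis-high cells, the class ratio was 0.534, and with hemoglobin genes kept in the clustering it was 0.506.

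In the other B-cell-like cells, members were lower in CFA by a ratio of 0.321 [0.261–0.392]. Of 13 members with enough UMIs, 9 were 2-fold lower, where 4.75% of genes were, and 0 were higher, where 6.15% were. Counting only cells with at most 1% hemoglobin, 8 of 12 were lower, against 5.72% of genes. Over all cells, 28 members were under the filter of 20 UMIs. Ube2c (72 PBS and 1 CFA UMIs), Birc5 (35 and 1) and Cdc20 (26 and 1) passed it through PBS. Neither count is therefore read against the share of genes. Ube2c had 155 CPM in PBS and 3.44 in CFA, where it rested on 1 UMI (ratio 0.0222 [0.000554–0.127]). Birc5 (75.5 and 3.44) and Cdc20 (56.1 and 3.44) followed, and Tpx2 (38.9 and 31.0) had the highest ratio, 0.798. The 118 PBS cells held 5 mitosis-high cells and the 64 CFA cells held 1, and without them the ratio was 0.634. The ratio depended on how cells were classed, at 0.954 with hemoglobin genes kept in the clustering and 0.751 with cycle genes kept. With each cell classed alone, the class also held the early cells, at 0.961. At resolution 0.8, no early class was compared, and the B-cell-like class had 0.869.

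Progenitor-like cells had a ratio of 0.879 [0.852–0.906], 1.04 [0.978–1.10] for S-phase and 0.827 [0.798–0.857] for mitotic members. None of the 41 members was 2-fold apart, where 8.74% of genes were higher and 18.8% lower. Mcm5 (52.7 and 77.0, ratio 1.46 [1.14–1.89]), Pcna (115 and 166, ratio 1.44) and Bub1 (1.30) had the highest ratios, and Cenpf (157 and 81.4, ratio 0.519 [0.431–0.624]), Ccnb1 (0.612) and Hmmr (0.645) the lowest. The libraries filled this class from different clusters. Cluster 21, led by F13a1, Ly6c2, Ccr2, Prtn3 and Mpo, gave 119 of 134 CFA cells but 32 of 341 PBS cells. Its own levels were 4717 [4553–4885] in PBS and 3827 [3746–3910.3] in CFA. Clusters 22 and 34, led by Elane, and 36, led by Dpp6, gave 137, 90 and 82 of the PBS cells, at 5046, 3100.1 and 2025. When cells were clustered on 50 components in place of 200, the class ratio turned to 1.30, and without mitosis-high cells it was 0.370. Of the 122 mitosis-high PBS cells, 103 had over 1% hemoglobin. The 35 PBS and 133 CFA cells with at most 1% hemoglobin stood at 4302 [4145–4464] and 3592 [3518–3668].

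Granule-stage neutrophil-like cells had a ratio of 0.707 [0.679–0.736]. No member was 2-fold higher and 5 of 41 were 2-fold lower in CFA, against 13.7% and 16.6% of genes. Uhrf1 (66.1 and 18.8 CPM, ratio 0.285 [0.187–0.431]), Ttk (0.400) and Tk1 (0.450) were lowest. Bub1 (1.42), Gins2 (1.38) and Cenpe (1.23) were highest, each with an interval that held 1. Cluster 41, 64 PBS cells with a median hemoglobin of 28.4%, belonged to PBS alone. At a clustering resolution of 0.8 in place of 1.5, the class ratio turned to 1.12, and without mitosis-high cells it was 0.163. Of the 54 mitosis-high PBS cells, 32 had over 1% hemoglobin. The 24 PBS and 117 CFA cells with at most 1% stood at 4963 [4751–5182] and 3072 [3001–3145].

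The share of cells with at least 5 member UMIs follows depth, so it is given as counted and after thinning each cell to 1000 UMIs. Outside the erythroid classes, 1504 of 4886 PBS cells (30.8%) and 709 of 4031 CFA cells (17.6%) passed it, and 8.54% and 3.05% passed after thinning. Mature neutrophil-like cells set the background at 4.76% [0.582–16.2] in PBS and 3.15% [1.28–6.39] in CFA, with median UMIs of 5853 and 3192. After thinning, none of their 40 PBS and 215 CFA cells passed, which allows up to 7.50% and 1.40%.

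Early B-cell-like cells passed in 47.1% and 39.3% and, thinned, in 41.3% and 33.3%. Early erythroid-like cells passed in 98.6% and 88.0% (thinned 71.0% and 56.5%), and late erythroid-like cells in 76.2% and 80.1% (49.0% and 46.1%). Progenitor-like cells passed in 79.5% and 61.9% (32.8% and 23.3%) and granule-stage neutrophil-like cells in 66.2% and 58.5% (23.5% and 30.5%).

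In the resident classes, most cells that passed as counted did not pass after thinning. Plvap endothelial-like cells passed in 36.1% and 38.1% but in 0.769% and 2.60% after thinning. Osteoclast-like macrophages of CFA, with a median of 30609 UMIs, passed in 53.1% as counted and in 0 of 273 cells after thinning, which allows up to 1.10%. Fibroblast-like cells passed in 9.46% and 9.01% (thinned 0.901% and 0.313%) with medians of 11802 and 14304 UMIs. Schwann-like cells of PBS (2.60%) and Car4 endothelial-like cells of CFA (2.80%) lay at or below the mature neutrophil-like share. Mural-like cells passed in 25.2% and 13% (3.36% and 0.893%), with medians of 2987 and 8923 UMIs.

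**Figure D3:**
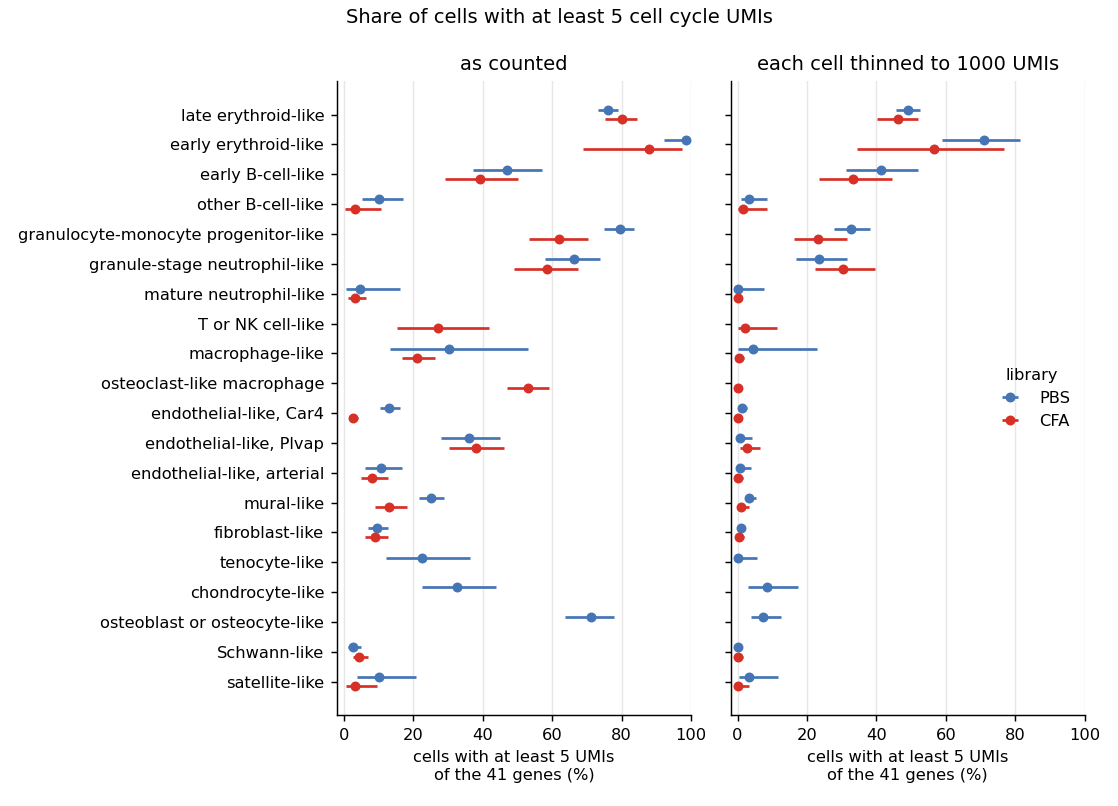
Percent of cells with at least 5 member UMIs in each class, as counted and after thinning to 1000 UMIs, PBS and CFA, with exact 95% Clopper-Pearson intervals. Precursor classes keep shares over 20% after thinning, and osteoclast-like macrophages drop from 53.1% to 0.

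The cells with at least 5 member UMIs came from different sources in the libraries. In PBS, 33.2% were erythroid, 19.7% other blood lineages, 22.4% resident and 24.8% of unnamed clusters. In CFA, these were 26.8%, 43.7%, 19.3% and 10.2%. Without the erythroid cells, blood lineages gave 29.5% of them in PBS and 59.7% in CFA. These shares are as counted, so they follow depth. Osteoclast-like macrophages and macrophage-like cells gave 20.5% and 9.03% of the non-erythroid cells that passed in CFA, against 0.0665% and 0.465% in PBS. After thinning to 1000 UMIs, 0 of 273 and 1 of 300 of these CFA cells passed. The higher blood share of CFA is therefore not read as a higher share of dividing cells.

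To describe how much of the difference goes with composition, each library's class levels were weighted by the other library's UMI shares. The PBS level of 2607 became 1947 with the class shares of CFA, and the CFA level of 1454 became 2328 with those of PBS. Without erythroid cells, 1259.6 in PBS became 1391 with CFA shares, and 763 in CFA became 768 with PBS shares. Limited to cells with at most 1% hemoglobin, 903 became 1078 and 759 became 659.8. Some of the levels weighted here rest on very few cells. Osteoclast-like macrophages had 3 PBS cells at 1613 CPM, against 273 CFA cells at 205, and the value of 1391 rests in part on that PBS level. All unnamed clusters entered as a single class. The direction of these changes is therefore not read as a result.

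In resident cells of PBS, member levels moved with hemoglobin, RNA of red cells. The 845 cells with at most 0.1% hemoglobin had 379 CPM [368–391] and the 999 with 0.1 to 1% had 295 [281–310.2]. The 124 cells with 1 to 5% had 1436 [1342–1534], the 326 with 5 to 15% had 1920.2 [1844–1999], and the 265 with more had 1389 [1331–1449]. S-phase members went from 165 and 167 to 505, 510.4 and 301, and mitotic members from 214 and 128 to 931, 1409.7 and 1088. Median UMIs were 12225 and 4519 in the low strata and 3492, 2740.0 and 2987 in the high ones. In CFA, 1890 resident cells had at most 0.1% hemoglobin, with 385 CPM [376–394], and 315 had 0.1 to 1%, with 205 [174–239]. Only 13 CFA cells had more. The strata also differed in their mix of classes. At most 1% hemoglobin was found in 210 of 603 mural-like and 10 of 166 osteoblast- or osteocyte-like PBS cells. For Car4 endothelial-like and fibroblast-like cells, these were 533 of 555 and 417 of 444. The part of class mix or of red cell RNA in the PBS levels was not tested.

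**Figure D4:**
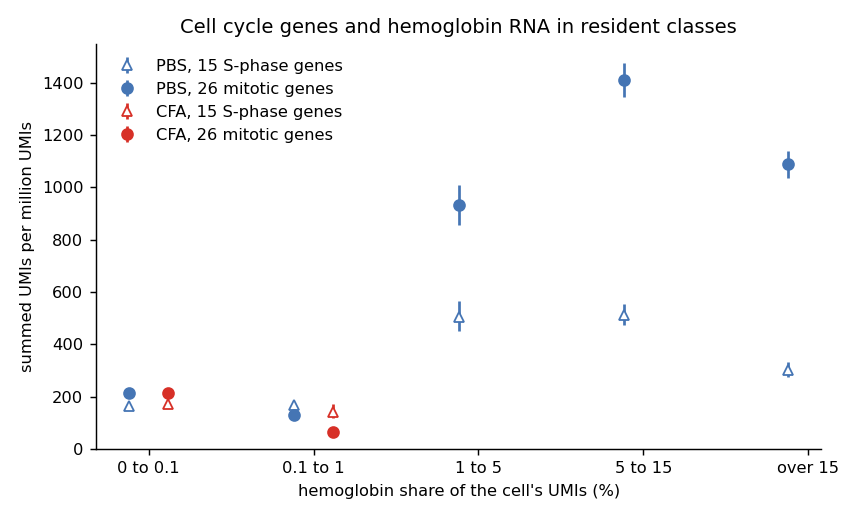
S-phase and mitotic member levels (CPM) in resident cells, by the cell's percent of hemoglobin UMIs, PBS and CFA, with exact 95% Poisson intervals. In PBS both sets are higher in the 3 strata over 1% hemoglobin than in the 2 below it, and CFA has 13 cells over 1%. The mix of cell classes differs between the strata.

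Because a few cells can carry a class, cells with at least 10 mitotic UMIs that also made at least 1000 CPM were set apart as mitosis-high, limits set after the data were seen. They are a range and not a type. Of the 492 such PBS cells outside the erythroid classes, 152 had under 15 mitotic UMIs, and 429 more PBS cells met the CPM limit with 5 to 9 mitotic UMIs. In CFA, 8 of 178 had under 15, and 9 more cells had 5 to 9. In total there were 947 mitosis-high cells in PBS and 364 in CFA. Erythroid cells were 48.0% and 51.1% of them, other blood lineages 23.9% and 41.5%, and resident cells 11.7% and 3.57%. Among resident cells with at most 1% hemoglobin, 19 of 1844 PBS cells (1.03%) and 10 of 2205 CFA cells (0.454%) were mitosis-high. Within the early B-cell-like class these were 34 of 92 and 30 of 89 cells.

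Car4 endothelial-like cells, capillary cells that make carbonic anhydrase 4, had a lower member level in CFA. The ratio was 0.600 [0.557–0.645], and 0.530 [0.491–0.572] with at most 1% hemoglobin. Of 37 members with enough UMIs, 17 were 2-fold lower, 4 of S phase and 13 of mitosis, and 0 were higher, where 7.22% of genes were lower and 5.26% higher. With at most 1% hemoglobin, 20 of 37 were lower and 0 higher, against 7.46% and 5.11% of genes. Tk1 (4.37 and 0.901 CPM, ratio 0.206 [0.0387–0.712]), Anln (7.97 and 1.80, ratio 0.226) and Ube2c (22.4 and 5.10, ratio 0.228 [0.127–0.386]) were lowest. Mcm4 (1.23), Ccne2 (1.17) and Kif23 (1.04) were highest, each with an interval that held 1. In cells with at most 1% hemoglobin, 8 of 533 PBS cells (1.5% [0.650–2.94]) and 1 of 782 CFA cells (0.128% [0.00324–0.710]) were mitosis-high. Those 8 PBS cells had erythroid markers at 1071 CPM against 258 in the other PBS cells. Without mitosis-high cells, the ratio was 0.836 [0.762–0.918], and leaving out the top 5% by doublet score it was 1.01.

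Plvap endothelial-like cells, which carry the diaphragm protein of fenestrated vessels, had a ratio of 1.28 [1.17–1.40]. It was 2.43 [2.14–2.76] with at most 1% hemoglobin, which left 77 of 133 PBS and 152 of 155 CFA cells. Of 34 members, 8 mitotic ones were 2-fold higher and 1 S-phase member was 2-fold lower, against 5.01% and 7.09% of genes. Counting only cells with at most 1% hemoglobin, 19 of 30 were higher, 18 of them mitotic, and 0 lower, against 5.29% and 6.92% of genes. There, Ube2c (3 PBS and 111 CFA UMIs), Cenpe (2 and 67) and Cenpf (4 and 92) passed the filter of 20 UMIs through CFA. That count is therefore not read against the share of genes. Bub1b (2.34 and 7.90 CPM, ratio 3.37 [1.0–17.7]), Anln (4.69 and 14.2, ratio 3.03) and Kif20b (7.03 and 19.8, ratio 2.81 [1.37–6.50]) were highest. Rrm2 (10.2 and 4.35, ratio 0.428), Nusap1 (0.537) and Mcm7 (25 and 13.8, ratio 0.553) were lowest. One CFA cell gave 538 of the 1130 mitotic UMIs (47.6%). Without mitosis-high cells, 8 in PBS and 4 in CFA, the ratio was 0.639 [0.569–0.719], and 1.06 [0.919–1.24] with at most 1% hemoglobin. As a mean over cells, the ratio was 0.528, and with 50 components it was 2.09.

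Arterial endothelial-like cells had a ratio of 0.630 [0.544–0.728], and 0.918 [0.780–1.08] with at most 1% hemoglobin. Of 12 members with enough UMIs, 4 were 2-fold lower and 0 higher, against 5.18% and 6.29% of genes. The other 29 were under the filter, which Mki67 (57 PBS and 3 CFA UMIs) and Top2a (22 and 5) passed through PBS. This count is therefore not read against the share of genes. Below that limit, 8 members had enough UMIs, of which 1 was lower and 0 were higher, against 5.12% and 6.35%. Mki67 was at 50.6 CPM in PBS and 2.27 in CFA (0.0449 [0.00899–0.138]), Top2a at 19.5 and 3.78, and Ube2c at 15.1 and 3.03. Mcm6 (16.9 and 25.7, ratio 1.53), Mcm4 (1.39) and Rrm1 (1.11) were highest, each with an interval that held 1. The PBS cells held 1 mitosis-high cell, with 135 mitotic UMIs and over 1% hemoglobin, and the CFA cells 0 of 208. Over all endothelial-like cells, the ratio was 0.848 [0.808–0.890], and 2 of 41 members, Nusap1 (0.415) and Rrm2 (0.421), were 2-fold lower, where 5.97% of genes were, and 0 were higher, where 4.92% were. With at most 1% hemoglobin, 1 of 41 was lower and 0 were higher, against 5.72% and 5.01%. The ratio over all endothelial-like cells was 1.31 without the 5% of highest doublet scores.

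Mural-like cells, the pericytes and smooth muscle of vessels, had a ratio of 0.696 [0.651–0.743], and 1.14 [1.06–1.24] with at most 1% hemoglobin, which left 210 of 603 PBS cells. Of 38 members, 9 were 2-fold lower and 0 higher, against 9.94% and 4.37% of genes. In cells with at most 1% hemoglobin, 2 of 34 were higher and 0 lower, against 3.69% and 6.62%. Rrm2 (15.6 and 4.81 CPM, ratio 0.309), Mcm3 (14.7 and 4.81, ratio 0.328) and Birc5 (30.5 and 10.9, ratio 0.358) were lowest. Rrm1 (43.4 and 71.3, ratio 1.64 [1.31–2.07]), Plk1 (1.19) and Pcna (1.15) were highest. Clusters 10 and 28, with median hemoglobin of 12.8% and 12.2%, gave 301 and 120 of the PBS cells but 5 and 2 of the CFA cells. Of the cells with at most 1% hemoglobin, 4 in PBS and 2 in CFA were mitosis-high, and the 4 had neutrophil markers at 8327 CPM against 98.2 in the other PBS cells and 2520.4 in the other CFA cells. Over all cells, the ratio was 0.441 without mitosis-high cells, and 0.310 both as a mean over cells and without the top 5% by doublet score.

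Fibroblast-like cells had a ratio of 0.964 [0.892–1.04], and 1.17 [1.08–1.27] with at most 1% hemoglobin. Of 31 members, 1 was 2-fold higher (Hmmr, 1.47 and 5.67 CPM, ratio 3.87 [1.72–9.79]) and 4 were lower, against 5.57% and 6.16% of genes. Counting only cells with at most 1% hemoglobin, 3 of 29 were higher and 1 lower, against 5.45% and 6.30%. The lowest were Mki67 (21.4 and 5.86, ratio 0.273 [0.177–0.411]), Uhrf1 (3.11 and 0.977, ratio 0.314) and Ccna2 (0.439). Of cells with at most 1% hemoglobin, 3 of 417 in PBS and 2 of 320 in CFA were mitosis-high. The 3 PBS cells had B-cell markers at 1186 CPM against 25.2 in the others, and 1 CFA cell gave 475 of the class's mitotic UMIs. With each cell classed alone, the ratio was 0.450.

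Schwann-like cells, the glia of peripheral nerve, had a higher level in CFA, by 1.79 [1.58–2.02], and by 1.83 [1.61–2.08] with at most 1% hemoglobin. S-phase members did not differ beyond counting error (1.04 [0.863–1.25]) and mitotic members were at 2.66 [2.25–3.17]. Of 20 members, 12 were 2-fold higher, all of them mitotic, where 10.9% of genes were higher, and 0 were lower, where 2.68% were. The other 21 members were under the filter of 20 UMIs. Tpx2 (2 PBS and 21 CFA UMIs), Cenpe (4 and 35) and Cenpf (5 and 44) passed it through CFA. The count is therefore not read against the share of genes. Tpx2 (1.29 and 10.8 CPM, ratio 8.36 [2.04–73.6]), Cenpf (3.22 and 22.6, ratio 7.01 [2.79–22.6]) and Cenpe (2.58 and 18, ratio 6.97 [2.49–27.0]) were highest. Mcm7 (0.796), Rrm1 (0.848) and Anln (1.01) were lowest, each with an interval that held 1. A single CFA cell gave 433 of the 592 mitotic UMIs (73.1%). Its Schwann markers stood at 3097 CPM against 22641 in the other CFA cells. Without the mitosis-high cells, 0 in PBS and 2 in CFA, the ratio was 0.843 [0.731–0.972], and leaving out the top 5% by doublet score it was 0.830.

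Satellite-like cells, the stem cells of muscle (59 and 89 cells), had a ratio of 0.854 [0.689–1.06]. Of 7 members with enough UMIs, 2 were 2-fold higher and 1 lower, against 8.83% and 7.56% of genes. With at most 1% hemoglobin, 3 were higher and 1 lower, against 9.15% and 7.53%. Over all cells, these were Kif11 (7.37 and 27.0 CPM, ratio 3.67 [1.06–19.6]) and Mcm4 (12.3 and 42.9, ratio 3.50 [1.33–11.6]), and, lower, Mki67 (44.2 and 19.1, ratio 0.432 [0.190–0.948]). The other 34 members were under the filter, so these counts are not read against the share of genes. The PBS class held 2 mitosis-high cells and the CFA class 1, and without them the ratio was 1.30 [0.973–1.74], or 1.40 [1.04–1.91] with at most 1% hemoglobin.

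**Figure D5:**
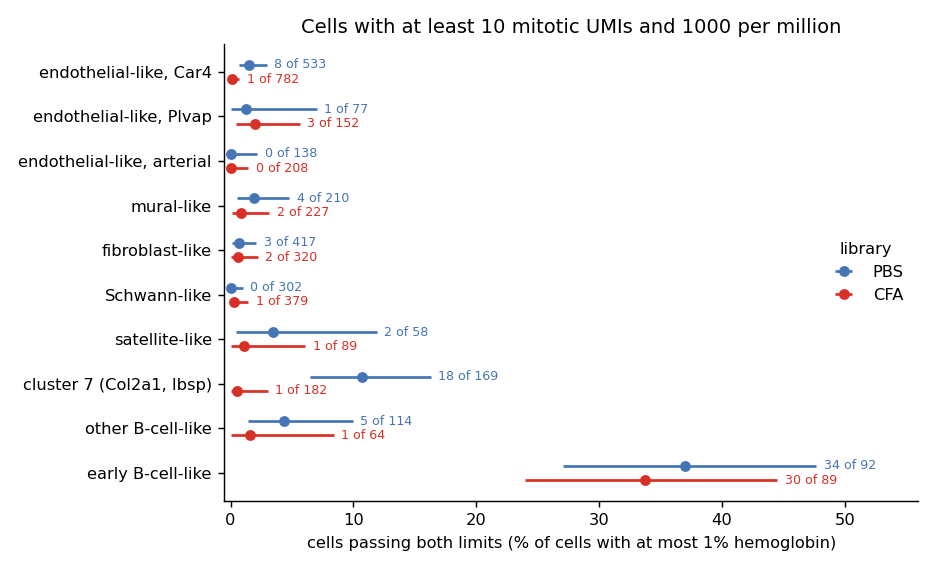
Percent of cells that passed both limits for mitosis-high, among cells with at most 1% hemoglobin, by class, PBS and CFA, with exact 95% Clopper-Pearson intervals. Early B-cell-like cells lie at 37.0% and 33.7%, cluster 7 at 10.7% and 0.549%, and the named resident classes below 5%.

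Cluster 7 was of like size in both libraries (195 and 183 cells) and differed between them. It was led by Col2a1, Ibsp, Tnn, Hapln1, Snorc and Acan, genes of cartilage and of mineralising matrix, and could not be named, since its leading genes belong to more than 1 class. Median UMIs were alike, 12079 and 12173. Members stood at 1288 [1249–1328] in PBS and 239 [221–257] in CFA, a ratio of 0.185 [0.171–0.201], and at 0.224 [0.206–0.243] with at most 1% hemoglobin. Of 40 members, 34 were 2-fold lower in CFA, 26 of 26 mitotic and 8 of 14 S-phase, and 0 were higher, where 8.08% of genes were lower and 3.71% higher. In cells with at most 1% hemoglobin, 32 of 38 were lower, where 7.55% of genes were, and 0 higher, where 3.67% were.

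The mitotic members of cluster 7 had a ratio of 0.117 [0.105–0.130], against 0.542 [0.474–0.619] for the S-phase members. Plk1 (13.2 and 0.669 CPM, ratio 0.0508 [0.00596–0.195]), Hmmr (36.5 and 2.01, ratio 0.0550) and Cdc20 (41.1 and 2.34, ratio 0.0570 [0.0225–0.121]) were lowest. Mki67 stood at 80.0 and 6.69, Top2a at 101 and 17.4, Ube2c at 90.8 and 8.70, and Birc5 at 67.8 and 4.35. Mcm6 (10.4 and 15.4, ratio 1.48 [0.927–2.37]), Mcm7 (0.784) and Tyms (0.736) were highest, each with an interval that held 1. Most of the PBS signal lay in few cells. Counting only cells with at most 1% hemoglobin, 18 of 169 PBS cells (10.7% [6.44–16.3]) and 1 of 182 CFA cells (0.549% [0.0139–3.02]) were mitosis-high, and without such cells the ratio was 0.781 [0.685–0.891] (0.749 [0.659–0.851] over all cells).

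The 18 mitosis-high PBS cells of cluster 7 could be set beside the 151 others for genes that the limits did not use. Acan, the aggrecan core of cartilage, was at 1295 CPM in the mitosis-high and 1065 in the other cells, and Col2a1, cartilage collagen, at 3957 and 5932. Ibsp, a protein of mineralising matrix, was at 42.3 and 5029, Col10a1, of hypertrophic chondrocytes, at 13 and 168, and Prg4, lubricin, at 0 and 486. Sp7, an osteoblast factor, was at 120.4 and 96.9. Ibsp was at 17529 in the other CFA cells. Erythroid markers were at 133 and 138 in the mitosis-high and other PBS cells.

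Cluster 35 (41 PBS and 44 CFA cells), with Siglech, Flt3 and Dntt among its leading genes, could not be named for want of 3 detected markers. Its level was 2471 [2345–2602] in PBS and 2729.6 [2599–2865] in CFA, and 7 cells of each library were mitosis-high among those with at most 1% hemoglobin. Several classes had too few cells in 1 library for a ratio. Chondrocyte-like cells of PBS (80) had 1349 CPM. The 35 with at most 1% hemoglobin had 697, or 207 without 1 mitosis-high cell, and the 45 others had 2840.3. Osteoblast- or osteocyte-like cells had 1724 in PBS (166) and 127 in CFA (16), and all 54 mitosis-high PBS cells of the latter had over 1% hemoglobin. The 10 PBS osteoblast- or osteocyte-like cells with at most 1% had 117. Tenocyte-like cells had 475 (53) and 169.9 (17), and 175 in the 47 PBS cells with at most 1% hemoglobin. Mast cell- or basophil-like cells had 4398 (8) and 2473 (13), T or NK cell-like cells of CFA 854 (48), and macrophage-like cells of PBS 984 (23).

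Genes that act around the members were taken from 7 lists, and are described by the same 2-fold count within classes against the same percent of genes, over all cells unless stated. Among them Ccnd3, a D cyclin that opens the cycle, was 2-fold higher in CFA in 8 of 13 groups, the 12 classes compared and cluster 7. It stood at 139 CPM in PBS and 489 CPM in CFA in Car4 endothelial-like cells (3.51 [3.18–3.88]), and at 98.1 and 340.0 in cluster 7 (3.46). The ratio was 3.05 in Schwann-like, 2.82 in fibroblast-like, 2.73 in arterial, 2.36 in other B-cell-like, 2.23 in satellite-like and 2.16 in progenitor-like cells. It was 0.890 in Plvap endothelial-like and 1.03 in late erythroid-like cells. Of the other D cyclins, Ccnd2 was also higher in other B-cell-like cells (60.4 and 124, ratio 2.05 [1.22–3.49]), though at 1.92 it was under 2-fold with at most 1% hemoglobin. Of the 7 D cyclins and partners, 4 were lower in granule-stage neutrophil-like and 3 in late erythroid-like cells, where 16.6% and 19.8% of genes were, and 0 were higher. Ccnd1 was at 129.9 and 61.5 in Car4 endothelial-like cells (0.474) and at 255 and 35.0 in satellite-like cells (0.137), and Ccnd2 at 27.1 and 12.3 in Schwann-like cells (0.455).

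The E2F and pocket protein genes and the polyadenylated chromatin and tubulin genes were lower in some of the classes whose members were lower, although 2 of 11 E2F and pocket protein genes were higher and 3 lower in Car4 endothelial-like cells (5.26% and 7.22% of genes). In cluster 7, 2 of 10 of the former and 7 of 12 of the latter were 2-fold lower and 0 higher, against 8.08% and 3.71% of genes, and 1 of 9 and 5 of 12 were lower with at most 1% hemoglobin. Over all cells these included Stmn1, a tubulin regulator of dividing cells (190.4 and 41.8 CPM, ratio 0.220), H2afz (473 and 209, ratio 0.441) and Tubb5 (399.6 and 190.1, ratio 0.476, and 0.509 with at most 1% hemoglobin). In other B-cell-like cells, 5 of 10 chromatin and tubulin genes were lower (4.75% of genes), and in Schwann-like cells 0 of 12 were higher or lower (10.9% and 2.68%). Stmn1 was also lower in Car4 (105 and 36.9, ratio 0.351) and arterial (0.318) endothelial-like and satellite-like cells (0.341). E2f1 was at 5.66 and 1.5 in Car4 endothelial-like cells (0.265 [0.0785–0.718]) and at 12.9 and 4.35 in cluster 7 (0.338). E2f2, which is abundant in red cell precursors (434 and 402 in late erythroid-like cells), was lower in Car4 endothelial-like (8.75 and 1.20, ratio 0.137), mural-like (23.5 and 2.19, ratio 0.0932) and fibroblast-like cells (13 and 0.781, ratio 0.0601). With at most 1% hemoglobin, E2f2 stood at 0.121 in Car4 endothelial-like and 0.173 in fibroblast-like cells, and in mural-like cells it had 4 PBS and 3 CFA UMIs, too few for a call. Foxm1 was lower in Car4 endothelial-like cells (5.40 and 1.5, ratio 0.278) and cluster 7 (6.44 and 1.34, ratio 0.208). With at most 1% hemoglobin, its 15 and 4 UMIs in cluster 7 were too few for a call, and 0 of 5 genes of its list were called there. In Car4 endothelial-like cells, 1 gene of that list was higher. Further, 0 of the 6 measured genes of the list were 2-fold apart in early B-cell-like cells.

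Of the inhibitors of cyclin-dependent kinases, Cdkn1c was lower in CFA in Plvap (99.2 and 27.7 CPM, ratio 0.279) and arterial (391 and 135, ratio 0.346) endothelial-like, satellite-like (486 and 20.7, ratio 0.0425) and progenitor-like cells (44.3 and 3.61, ratio 0.0815). In cluster 7 it stood at 271 and 429.7 (1.59 [1.46–1.73]). By list, 1 of 5 measured inhibitors was lower in Plvap, satellite-like and progenitor-like cells and 1 of 4 in arterial cells (7.09%, 7.56%, 18.8% and 5.18% of genes). In late erythroid- and granule-stage neutrophil-like cells, 1 of 5 was lower (19.8% and 16.6% of genes). Inhibitors were higher in fibroblast-like (1 of 6, 5.57% of genes) and other B-cell-like cells (1 of 3, 6.15%). Of the genes of quiescence and growth arrest, Btg2 was higher in cluster 7 (322 and 655, ratio 2.03). Over that list, 0 of 8 genes were called in Schwann-, mural- or fibroblast-like cells, and 4 of 8 were lower (1 was higher in the latter 2) in each of the late erythroid-, progenitor- and granule-stage neutrophil-like classes, where 19.8%, 18.8% and 16.6% of genes were.

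Within a library, the same lists were compared between cells with at least 5 member UMIs and the other cells of a class, with at most 1% hemoglobin. Member UMIs chose the cells, so these were also the deeper cells, and members themselves are not counted. Of the 35 progenitor-like cells of PBS, 27 had at least 5 member UMIs, so every PBS count of that class rests on very few other cells. In early B-cell-like cells, 12 of 12 chromatin and tubulin genes were 2-fold higher in both libraries, where 24.1% of genes in PBS and 21.9% in CFA were. In progenitor-like cells, 12 of 12 were higher in both (23.8% and 20.8% of genes), and in granule-stage neutrophil-like cells of CFA, 11 of 12 (17.9%). Fewer were higher in endothelial-like cells, 3 of 12 in PBS and 6 of 12 in CFA (4.28% and 6.69% of genes), and in cluster 7, 10 of 12 and 4 of 12 (4.53% and 4.88%). Split instead by mitosis-high in PBS, 12 of 12 were higher in endothelial-like cells (9 such cells, 24.8% of genes) and in cluster 7 (18 cells, 8.77%). In progenitor-like cells of PBS, that split gave 8 of 12 (12.6%). Stmn1 stood at 2150.3 against 24.3 CPM in early B-cell-like cells of PBS and at 1558 against 33.1 in those of CFA. Hmgb2, a chromatin protein, stood at 3362 against 178 and at 2758 against 179.

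Of the E2F and pocket protein genes, 7 of 9 measured in PBS and 7 of 10 in CFA were higher in early B-cell-like cells, against the same 24.1% and 21.9% of genes. In progenitor-like cells, these were 1 of 6 and 6 of 10, against 23.8% and 20.8%. They were 2 of 11 and 0 of 9 in endothelial-like cells (4.28% and 6.69% of genes), and 1 of 8 and 0 of 7 in cluster 7 (4.53% and 4.88%). Split by mitosis-high in PBS, they were 8 of 11 in endothelial-like cells (24.8%) and 2 of 8 in cluster 7 (8.77%). Of the origin licensing and checkpoint genes, 5 of 6 and 6 of 7 were higher in early B-cell-like cells (24.1% and 21.9% of genes). In progenitor-like cells, 3 of 5 and 9 of 10 were higher (23.8% and 20.8%). Gmnn, which blocks a second licensing of origins, was at 239 against 8.11 CPM in PBS and 264 against 13.2 in CFA early B-cell-like cells. Of the MuvB, Myb and Foxm1 genes, 4 of 6 and 4 of 5 were higher in early B-cell-like cells (24.1% and 21.9% of genes). Mybl2, which encodes B-Myb, was at 84.1 against 8.11 in PBS, where the other cells held 1 UMI, and at 90.6 against 13.2 in CFA.

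Ccnd3 went the other way from the members in early B-cell-like cells, at 596 CPM in the cells with at least 5 member UMIs and 1119.6 in the others of PBS (0.532 [0.431–0.659]). It was at 662 and 1577 in those of CFA (0.420), and at 143 and 516 in progenitor-like cells of PBS (0.278). In progenitor-like cells of CFA, 0 of 6 measured D cyclins and partners were 2-fold lower and 5 were higher (8.74% and 20.8% of genes). The lower Ccnd3 of PBS was thus not seen there. Cdk4, its partner kinase, was higher in early B-cell-like (3.84 and 2.02) and progenitor-like cells (15, on 1 UMI in the other cells [2.64–598], and 4.94). Of the measured inhibitors of cyclin-dependent kinases, 2 of 4 in PBS and 3 of 4 in CFA were 2-fold higher in early B-cell-like cells. There, 1 was lower in each library. In progenitor-like cells, 0 of 3 in PBS and 1 of 4 in CFA were higher, and 1 was lower in each. These are too few genes to read against the share of genes. The inhibitor Cdkn1b was lower, at 0.412 and 0.425 times the level of the other cells in early B-cell-like cells of PBS and CFA. In progenitor-like cells it was at 0.392 and 0.498. The antiproliferative gene Btg2 was lower too, at 0.386 and 0.318, and 0.206 and 0.381. Cdkn2d was higher in early B-cell-like cells, at 182 against 16.2 in PBS and 151 against 33.1 in CFA. Of the quiescence and growth arrest genes, 2 of 6 and 3 of 6 were 2-fold lower in early B-cell-like cells, where 18.2% and 15.9% of genes were, and 3 of 7 and 3 of 6 in progenitor-like cells (15.4% and 8.74%).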

How the data were processed

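The authors aligned droplet single-cell reads to GRCm38/mm10 with Cell Ranger 7.0.1 and deposited raw UMI counts per gene and barcode, 7671 barcodes with 51146169 UMIs for PBS and 5709 with 53517206 for CFA. The annotation release is not given in the sources used here, the labels and methods differ on enzymes and kit chemistry, and the deposited CFA barcodes are fewer than the cell number given with the study. Barcodes under 500 genes (1537 and 944) or over 10% mitochondrial UMIs (550 and 715) were left out.

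Counts were clustered with Seurat 5.3.0 and sctransform 0.4.2 (3000 variable genes, 200 components, resolution 1.5). The 3000 genes were taken after cell cycle genes (44 of the first 3000) and 5 hemoglobin genes were left out, so the members did not define the classes. A cluster was named from at least 3 markers detected in 25% of its cells at 2-fold over the rest (with 10 CPM added), or from a list of subtype markers (cluster 33, with 2 class markers). Names were rebuilt and differ from the study's where it had others. Scrublet's automatic threshold, run in scanpy 1.11.5, marked 1 and 2 cells and so did not work. Cells were kept, and leaving out the 5% with the highest scores (265 and 217) was an alternative.

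UMIs were summed over cells per class, with exact Poisson, Clopper-Pearson and conditional binomial intervals (scipy 1.17.1). A count of 0 was given a limit of 3 counts. A fold was counted for genes with at least 20 UMIs in the pair of groups, as at least 2-fold higher or lower, with a count of 0 set to 3. Members with the 3 lowest and 3 highest ratios in a class are named, together with each member's peak class. Thinning drew 1000 UMIs a cell without replacement (seed 1) and left out shallower cells. The scripts were tested on simulated data. Members and lists were chosen with earlier results of these data known. Gene positions came from GENCODE vM21 by gene ID and start windows from RefSeq. The 2 libraries are single pools, so no test between conditions was made.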

Additional observations from a re-analysis of the deposited data

Results flagged for a closer look

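Cell cycle UMIs were also present in the barcodes that the cell limits left out and that no comparison used. The 1826 such barcodes of PBS had a member level of 623 CPM [606–640.2], with 76.9% of UMIs from hemoglobin genes, and the 1356 of CFA had 506 [486–526], with 50.2% from hemoglobin. Both lie far above the limit of 3 counts (0.368 CPM in PBS). 

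The mitotic members differed between the conditions in opposite directions in the endothelial-like classes with at most 1% hemoglobin. The ratio of CFA to PBS was 4.37 [3.56–5.42] in Plvap endothelial-like cells and 0.348 [0.309–0.391] in Car4 endothelial-like cells. The difference between them was not tested, since each condition is 1 library. In the Plvap class, 1 CFA cell gave 49.6% of the mitotic UMIs, and in the Car4 class, 8 PBS cells gave 78.1%.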

How the results depend on the processing

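No paired analysis was possible because each condition has 1 library. Ratios are CFA to PBS, and levels, shares of cells and blood shares of those cells are without erythroid cells, PBS first. Leaving out mitosis-high cells (chosen after seeing the data) turned Schwann (0.843), Plvap (0.639) and late erythroid (0.439), and satellite, whose interval held 1, went from 0.854 to 1.30. It gave other B 0.634, early B 0.534, cluster 7 0.749, Car4 0.836, arterial 0.920, fibroblast 0.827, progenitors 0.370, mural 0.441, granule neutrophils 0.163 and levels of 471 and 228. Leaving out the top 5% of doublet scores turned Schwann (0.830), Car4 (1.01) and all endothelial (1.31), and gave arterial 0.935, late erythroid 1.21, mural 0.310, granule neutrophils 0.785 and levels of 1221 and 705. A mean over cells turned Schwann (0.903) and Plvap (0.528), and gave other B 0.405, early B 0.782, all endothelial 0.607, arterial 0.796, late erythroid 1.26, fibroblast 0.813, progenitors 0.717, mural 0.310, granule neutrophils 0.797, satellite 0.654 and levels of 1416 and 529. Without cells over 1% hemoglobin, mural turned (1.14), with early B 0.789, cluster 7 0.224, Car4 0.530, Plvap 2.43, all endothelial 0.922, arterial 0.918, fibroblast 1.17, a PBS level of 903 and a PBS share of 16.1%. With 50 components, progenitors turned (1.30), with early B 0.901, Plvap 2.09, all endothelial 0.935, mural 0.503, granule neutrophils 0.664 and levels of 1275 and 777. At resolution 0.8, granule neutrophils turned (1.12), with all endothelial 0.708, late erythroid 1.08, mural 0.990, and PBS values of 1355, 33.4% and 35.3%. No early B class was compared there, and the B class had 0.869. With cycle genes kept in clustering, other B was 0.751, early B 0.799, late erythroid 1.06 and mural 0.749, with levels of 1349 and 772 and PBS shares of 33.4% and 25.3%. With hemoglobin genes kept, other B was 0.954, early B 0.506, late erythroid 1.13, fibroblast 0.658, mural 0.786 and granule neutrophils 0.834, with levels of 1359.9 and 786 and PBS shares of 33.2% and 33.2%. With each cell classed alone, B cells with the early ones included were at 0.961, Schwann 1.46, all endothelial 0.760, fibroblast 0.450 and mural 0.849. The CFA level was then 829 and the blood shares 34.2% and 55.5%. Hemoglobin out of the totals gave late erythroid 1.22, progenitors 0.828, granule neutrophils 0.617 and a PBS level of 1324. A mitochondrial limit of 5% gave Schwann 2.17, mural 0.928 and levels of 1288 and 815, and a minimum of 1000 genes gave late erythroid 1.22 and shares of 34.4% and 19.5%. Without Mki67, late erythroid was 1.16, mural 0.747 and levels 1138 and 704. At least 3 member UMIs gave shares of 47.2% and 31.3% (blood 23.3% and 49.0%), at least 10 gave 15.1% and 7.79% (40.1% and 78.0%), and thinning gave 8.54% and 3.05% at 1000 UMIs and 18.1% and 4.89% at 2000. At 3-fold, 2 Plvap members were higher and 7 Car4 members lower. With at least 50 UMIs, members 2-fold higher were 4 (Schwann) and 3 (Plvap), and members 2-fold lower were 2 (other B), 9 (Car4) and 21 (cluster 7). The share of all genes was not counted at these 2 limits, so these counts are not read as a result about the members. The cause of these changes was not tested. Of these results, 135 other values stayed within their interval or 1.5 times their count. Of single levels and shares by class, 347 moved beyond the interval and 495 did not. Small classes, rare cells and the single library per condition limit the precision.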
